A study of Mus musculus with 6 samples.

Results

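The 39 Hox genes of the mouse were chosen by name, as every gene whose symbol is Hox followed by a cluster letter, a, b, c or d, and a number between 1 and 13. All 39 were among the 24973 genes with a value on the arrays, with 11 in the Hoxa cluster on chromosome 6, 10 in the Hoxb cluster on chromosome 11, 9 in the Hoxc cluster on chromosome 15 and 9 in the Hoxd cluster on chromosome 2. The tested cells were β-2M- SP α-6+ c-kit- undifferentiated spermatogonia, and they were set against β-2M- SP α-6+ c-kit+ differentiating spermatogonia, with both populations taken by flow sorting from testes of FVB/N mice that were 2 to 3 months old. They are named c-kit- cells and c-kit+ cells from here on. Each group had 3 samples of 10000 sorted cells, each from 1 mouse, and 500 pg of total RNA per sample was amplified before hybridization to 1 array (Affymetrix Mouse Gene 2.0 ST). By the labels, no genotype or treatment separated the groups, which differ by the c-kit gate. Values are the deposited log2 signals, and a difference is c-kit- minus c-kit+, so that a positive one means a higher signal in c-kit- cells. Genes with an adjusted p under 0.05 from limma are those said to be called, with Benjamini-Hochberg adjustment over all 24973 genes.

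Hox genes encode homeodomain transcription factors that give cells of the embryo their position along the body axis. They sit in clusters in which the order of the genes on the chromosome follows the order of their expression from head to tail, and genes with the same number in different clusters, called paralogs, arose from 1 ancestral gene. In cells that do not use them they are held silent by Polycomb proteins, they are opened by trithorax proteins and retinoic acid, and their proteins bind DNA together with Pbx and Meis cofactors.

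The markers of the sorted cells followed their labels. Kit, the gene of the c-kit receptor, was at 6.07, 6.35 and 6.03 on the c-kit- arrays, against 9.84, 9.85 and 9.69 on the c-kit+ arrays. All 10 markers of undifferentiated spermatogonia were higher in c-kit- cells, and of 8 markers of differentiating spermatogonia 6 were lower and 1, Sohlh1, was higher. Most of the 10 were already reported by the study as positive in the c-kit- profile of these arrays, and c-kit was the sorting gate. These counts check the labels and are not separate support. Array medians lay between 5.25 and 5.33, and arrays of 1 group correlated at r = 0.986 to 0.992 over all genes. Of 14 leukocyte markers measured, 3 were lower in c-kit- cells (Cd74, C1qb and H2-Ab1), and the mean of the 14 was 5.06 to 5.36 on the c-kit- arrays, against 6.37, 6.06 and 5.23 on c-kit+ arrays 1, 2 and 3. Of 8 endothelial markers, 4 were higher in c-kit- cells (Pecam1, Cdh5, Flt1 and Tek), with list means of 4.83 to 4.99 in c-kit- cells and 4.35 to 4.52 in c-kit+ cells. Of 9 peritubular myoid markers, 1 was higher and 3 were lower, with list means of 5.64 to 5.84 in c-kit- cells and 5.99 to 6.13 in c-kit+ cells. The called shares of the leukocyte, endothelial and myoid lists were 21.4%, 50% and 44.4%, against a background of 18.1% of all genes. None of 12 Sertoli, 7 Leydig, 8 stromal and 6 spermatid markers was called by limma, with 1 Sertoli marker and 0 of the others at an unadjusted p under 0.05. The spermatid list had means of 9.85 to 10.37 in c-kit- cells and 9.94 to 10.19 in c-kit+ cells. Sertoli list means were 6.16 to 6.31 in c-kit- cells and 6.26 to 6.46 in c-kit+ cells, above the array medians. Those of the Leydig and stromal lists lay below the array medians. In a sorted sample, fewer cells of a type and less RNA per cell cannot be told apart.

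Hox signals were low in both populations. The mean over the 39 genes was 4.21 on each c-kit- array and 4.09 to 4.26 on the c-kit+ arrays, and single values ran between 2.84 and 6.36. Of the 39 genes, 33 lay below the array median on every array, against 10994 of all 24973 genes. Of the 33, 8 lay below the lower quartile on every array, against 4896 of all genes, so this share was near that of all genes. Hoxa4 and Hoxd10 lay above the array median on every array, and the number of Hox genes above it was 4 on each c-kit- array and 3 or 4 on the c-kit+ arrays. Array signals of different genes also depend on their probes and on background, so a low signal does not show that a gene was silent. The rank of a gene on the array depends on them too.

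**Figure D1:**
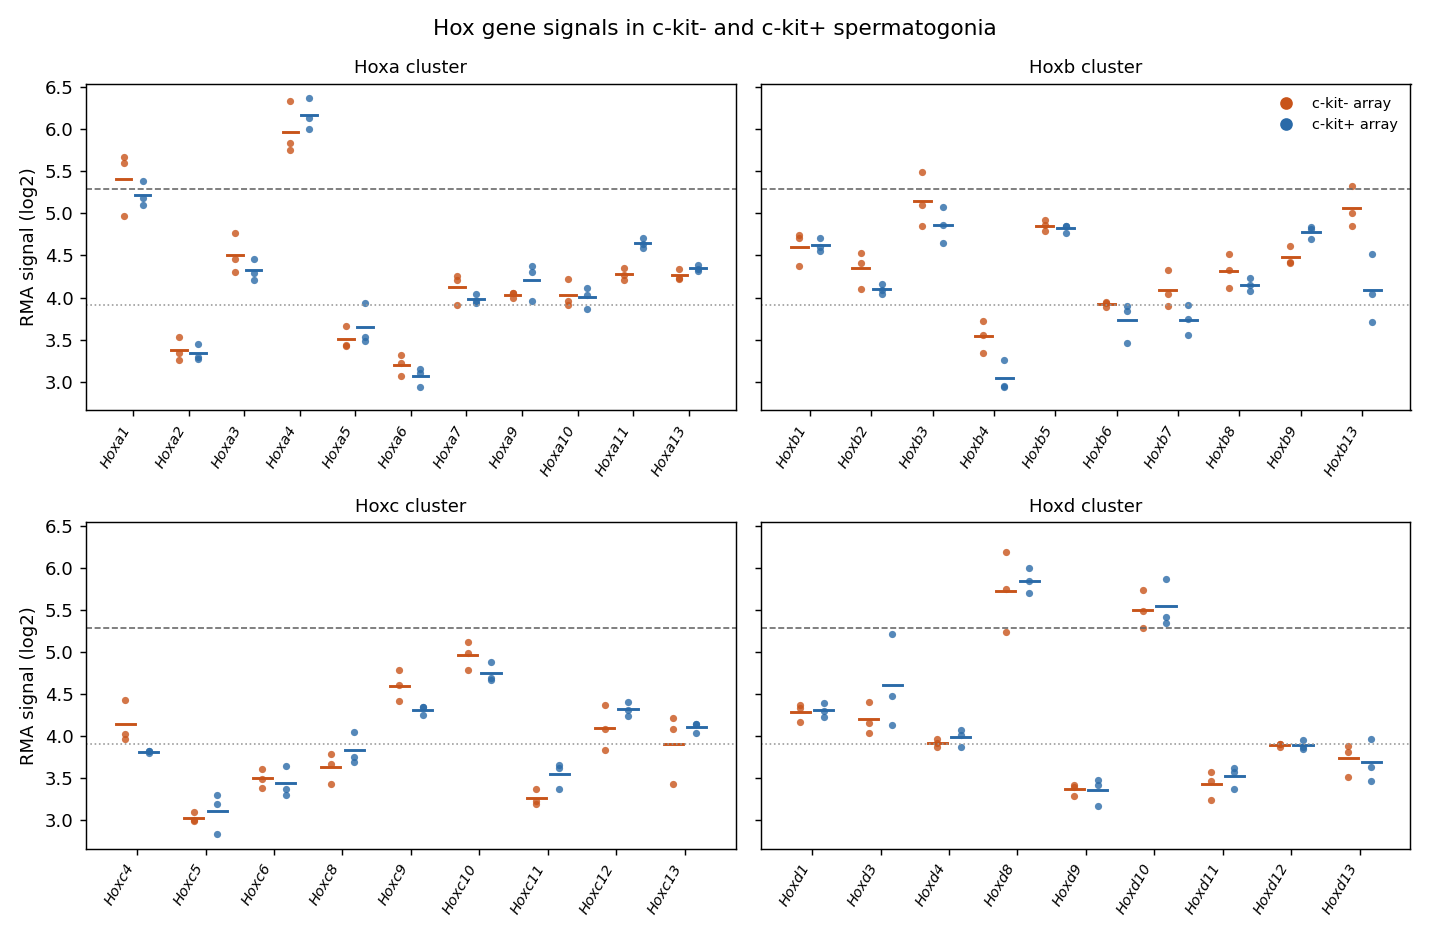
RMA signal (log2) of the 39 Hox genes in c-kit- arrays (orange, left) and c-kit+ arrays (blue, right), 1 panel per cluster, with the group mean as a bar and genes in the order of their number. The dashed line is the mean of the array medians (5.29), the dotted line the mean of the lower quartiles (3.91), and most points lie below the dashed line.

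Between the populations, 2 Hox genes were higher in c-kit- cells, Hoxb13 and Hoxb4, and 1 was lower, Hoxa11. The other 36 were not called. The called share was 7.69% of the Hox genes, against a background of 18.1% of all genes (9.33% higher and 8.79% lower) and 5.81% of the 12486 genes whose mean signal lay below that of the median gene, a range that held 35 of the 39 Hox genes. The median Hox difference was 0.01, against -0.04 over all genes, with 21 positive and 18 negative. The 95% interval of the difference lay within a 2-fold change either way for 38 of the 39 genes, with Hoxb13 as the exception. This also held for 21887 of all 24973 genes and for 11772 of the 12486 genes below the median gene. The median half-width of the interval was 0.30 for the Hox genes and for all genes. With the pair of thresholds used by the study (over 1.5-fold, unadjusted p under 0.02), 1 Hox gene passed, Hoxb13, against a background of 12.9% of all genes. At an unadjusted p under 0.05, 8 Hox genes passed, against a background of 29.9% of all genes. Of the 12486 genes below the median gene, 507 passed the study's thresholds and 1818 had an unadjusted p under 0.05.

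Hoxb13, the most posterior gene of the Hoxb cluster and a regulator of prostate and hindgut development, had the largest difference of the 39. Its signal was 5.32, 4.85 and 5.01 on c-kit- arrays 1, 2 and 3, against 3.71, 4.04 and 4.52 on c-kit+ arrays 1, 2 and 3. All c-kit- arrays lay above all c-kit+ arrays, and c-kit+ array 3 came closest to them. The difference was 0.97 ± 0.21 (standard error, n = 3 each), a 1.96-fold higher signal in c-kit- cells (adjusted p = 0.0147 from limma, and p = 0.1 from a two-sided exact permutation test, the smallest p that 3 arrays against 3 allow). Only c-kit- array 1 put Hoxb13 above the array median. Without c-kit+ array 2 the difference was 0.94 and the adjusted p from limma was 0.0542, and without c-kit+ arrays 1 and 2, the arrays with the higher leukocyte signals, it was 0.54 with an adjusted p from limma of 0.298, on 1 c-kit+ array assumed to vary like the c-kit- arrays. The part of the leukocyte and endothelial signals in this difference was not tested.

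Hoxb4, known for its role in blood stem cells, was at 3.34, 3.72 and 3.56 on the c-kit- arrays, against 2.94, 2.95 and 3.26 on the c-kit+ arrays. The groups did not overlap, but c-kit- array 1 and c-kit+ array 3 came close to each other. The difference was 0.49 ± 0.14 (standard error, n = 3 each; adjusted p = 0.0471 from limma). All 6 values lay below the lower quartile of their array. The call was lost without c-kit- array 2 or 3 and without c-kit+ array 1 or 2, with adjusted p from limma between 0.113 and 0.144, and also under 2 other scalings of the arrays.

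Hoxa11, which patterns the limb and the reproductive tract, was the gene with a called lower signal. It stood at 4.27, 4.21 and 4.35 on the c-kit- arrays, against 4.71, 4.59 and 4.64 on the c-kit+ arrays. The groups did not overlap and each was narrow, with SDs of 0.07 in c-kit- cells and 0.06 in c-kit+ cells. The difference was -0.37 ± 0.10 (standard error, n = 3 each; adjusted p = 0.0389 from limma). The call was lost whichever single array was left out, with adjusted p from limma between 0.0628 and 0.120, and under each of the 3 other scalings, with adjusted p from limma between 0.0509 and 0.0971.

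The promoter windows of Hoxb4 and Hoxa11 are shown because they lie around annotated starts of these called genes, and for Hoxb13 none is shown. The array signal does not show which start was used. RefSeq windows of the build GRCm38.p6, running 250 bases before to 50 after a start, were given for 22 of the 39 Hox genes, Hoxb4 and Hoxa11 among them. The Hoxb4 window is chr11:96318017-96318316 on the plus strand, and the Hoxa11 window is chr6:52245761-52246060 on the minus strand. Both run 5′ to 3′, and capitals mark CG dinucleotides, the sites of CpG methylation.
Hoxb4: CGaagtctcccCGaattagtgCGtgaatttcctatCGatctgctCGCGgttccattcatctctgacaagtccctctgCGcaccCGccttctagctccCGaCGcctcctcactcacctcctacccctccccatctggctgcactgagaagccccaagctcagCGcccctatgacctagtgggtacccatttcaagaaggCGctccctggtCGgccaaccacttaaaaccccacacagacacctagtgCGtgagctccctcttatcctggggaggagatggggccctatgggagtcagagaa
Hoxa11: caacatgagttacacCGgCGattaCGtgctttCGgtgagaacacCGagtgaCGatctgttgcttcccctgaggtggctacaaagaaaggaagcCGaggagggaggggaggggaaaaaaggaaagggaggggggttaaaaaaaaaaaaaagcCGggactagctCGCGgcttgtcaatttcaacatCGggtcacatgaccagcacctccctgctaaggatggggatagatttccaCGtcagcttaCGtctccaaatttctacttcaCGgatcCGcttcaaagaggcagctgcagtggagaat
The Hoxb4 window held 14 CG dinucleotides and the Hoxa11 window held 15, both close to the median of 14.5 over the 24 Hox windows (range 4 to 45), while the median over all 32851 RefSeq windows was 7. The joint binding sequence of Pbx and Hox proteins, searched as TGATTNAT on both strands, had no match in either window. It was found in 2 of the 24 Hox windows, those of Hoxa2 and of 1 start of Hoxd11, and in 3.22% of all windows.

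Among genes that were not called, 4 more had groups that did not overlap. Hoxc4 and Hoxc9 lay higher on every c-kit- array, with differences of 0.32 and 0.28, and Hoxb9 and Hoxc11 lay lower, with differences of -0.30 and -0.29. Their adjusted p from limma were 0.161, 0.161, 0.101 and 0.147, in the order named. With the 3 called genes this makes 7 of 39 Hox genes without overlap, against a background of 35.1% of all genes and 19.7% of genes below the median gene. The largest negative difference belonged to a gene whose groups overlapped, Hoxd3, at -0.40 (adjusted p = 0.340 from limma). Its c-kit- arrays read 4.04, 4.16 and 4.40, and its c-kit+ arrays read 4.13, 5.21 and 4.48, with c-kit+ array 2 far above the other two.

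Cluster by cluster, the 3 calls fell in Hoxa and Hoxb. The background was 18.1% of all genes and 5.81% of genes below the median gene. In the Hoxa cluster 1 of 11 genes was called (9.09%), lower, and the median difference was 0.03. In the Hoxb cluster 2 of 10 genes were called (20%, near the share of all genes), both higher, and the median difference was 0.22. There 8 of 10 differences were positive, with Hoxb1 at -0.01 and Hoxb9 at -0.30 as the others. The mean of the Hoxb genes was 4.43 to 4.45 on the c-kit- arrays and 4.11 to 4.25 on the c-kit+ arrays. These means did not overlap, whereas those of the other clusters did. They include the called genes Hoxb13 and Hoxb4, which had the largest differences of the cluster, 0.97 and 0.49. In the Hoxc cluster limma called none of 9 genes, and the median difference was -0.08. An unadjusted p under 0.05 from limma was found for 3 of the 9. The background was 29.9% of all genes and 1818 of the 12486 genes below the median gene. In the Hoxd cluster limma called none of 9, with 0 at an unadjusted p under 0.05, and no gene had groups without overlap. The median absolute difference there was 0.05, against 0.19 over all genes and 0.13 over genes below the median gene, where 7 of the 9 lay. Whether the clusters differ from each other was not tested, since genes of a cluster are not independent samples.

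**Figure D2:**
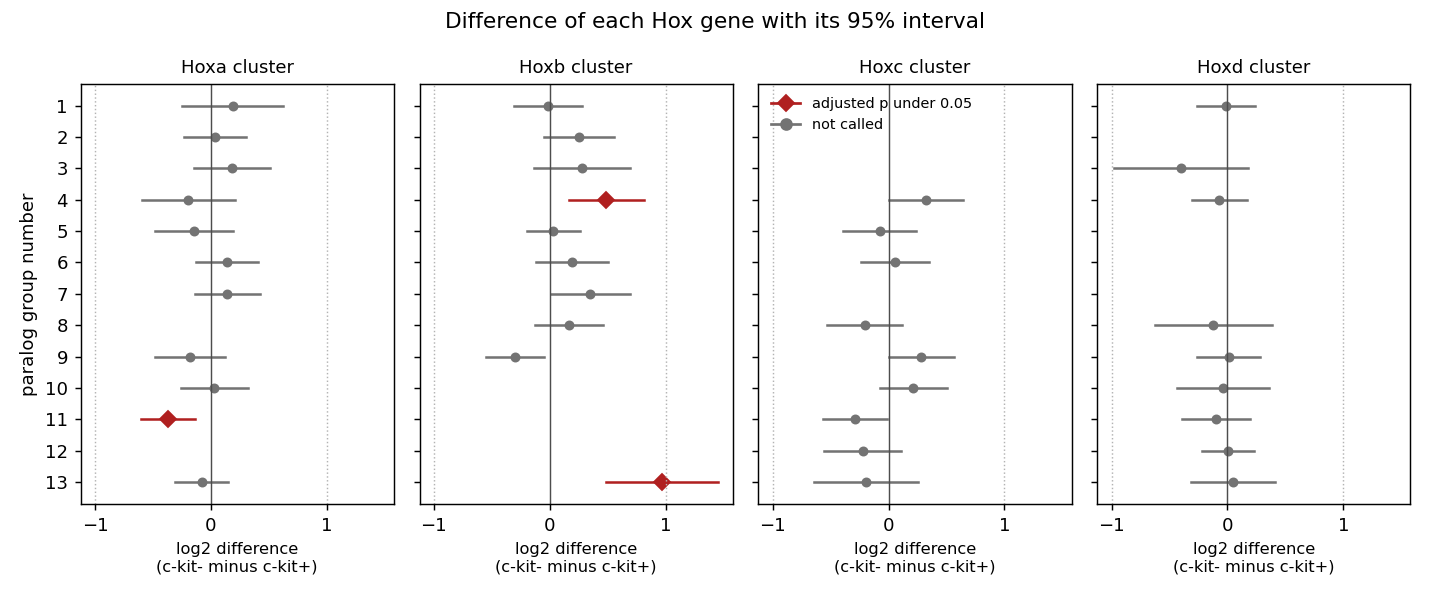
Difference in log2 signal of each Hox gene (c-kit- minus c-kit+, horizontal axis) with its 95% interval from limma, by paralog number (vertical axis) and cluster. Red diamonds are the called genes, Hoxb4 and Hoxb13 to the right of 0 and Hoxa11 to the left, and dotted lines mark a 2-fold change.

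The gene with the highest array signal of each cluster, a choice that also depends on the probes, was not called in any of the 4 clusters. Hoxa4, which is known to be expressed in male germ cells of the mouse, was at 5.75, 5.83 and 6.33 on the c-kit- arrays, against 5.997, 6.13 and 6.36 on the c-kit+ arrays, about the 61st percentile of the array. Its groups overlapped, and its difference of -0.19 had an interval of -0.59 to 0.21 (adjusted p = 0.529 from limma). Spermatid markers were also high, with list means of 9.85 to 10.37 in c-kit- cells and 9.94 to 10.19 in c-kit+ cells. Which cells of the samples gave the Hoxa4 signal was not tested. Hoxd8, a gene of the middle of the Hoxd cluster, was at 6.19, 5.24 and 5.75 on the c-kit- arrays, against 5.99, 5.84 and 5.71 on the c-kit+ arrays. The c-kit- arrays spanned the whole range of the c-kit+ arrays, and the difference was -0.12, with an interval of -0.63 to 0.38 (adjusted p = 0.777 from limma). Hoxb3, an anterior gene that patterns the hindbrain, was at 5.10, 5.49 and 4.85 on the c-kit- arrays, against 4.65, 5.08 and 4.87 on the c-kit+ arrays. The groups overlapped, and the difference was 0.28, with an interval of -0.14 to 0.70 (adjusted p = 0.361 from limma). Hoxc10, a posterior gene that acts in lumbar motor neurons and the hindlimb, was at 5.12, 4.98 and 4.79 on the c-kit- arrays, against 4.69, 4.89 and 4.67 on the c-kit+ arrays. Again the groups overlapped, and the difference was 0.22, with an interval of -0.07 to 0.50 (adjusted p = 0.305 from limma).

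Position within the cluster gave no common order. None of the 8 anterior genes (numbers 1 to 3) was called by limma (0 at an unadjusted p under 0.05). Of 15 central genes (4 to 8) 1 was higher (6.67%), and of 16 posterior genes (9 to 13) 1 was higher and 1 lower (12.5%). The background was 18.1% of all genes and 5.81% of genes below the median gene, so nothing about position is read from these counts. The median differences were 0.11, 0.06 and -0.06 in that order. The correlation of the difference with the gene number was r = -0.11 over the 39 genes, and it was -0.51 in the Hoxa, 0.39 in the Hoxb, -0.52 in the Hoxc and 0.49 in the Hoxd cluster, given as a description over 9 to 11 genes that share the same arrays.

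None of the paralogs of the called genes was called. Beside Hoxb13, the other genes of number 13 differed by -0.08 (Hoxa13), -0.20 (Hoxc13) and 0.05 (Hoxd13). Beside Hoxb4, Hoxc4 differed by 0.32, Hoxa4 by -0.19 and Hoxd4 by -0.07. Number 11 was the group in which all paralogs lay lower, Hoxa11 at -0.37, Hoxc11 at -0.29 and Hoxd11 at -0.10, of which only Hoxa11 was called. A shared direction was not particular to it, since all paralogs of numbers 2, 6 and 7 lay higher, none of them called.

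The clusters also hold noncoding genes, and 17 of them were measured, 12 for long noncoding RNAs and 5 for miRNAs. Of these, 1 was called higher and 0 lower, a share of 5.88% against the background of 18.1% of all genes and 5.81% of genes below the median gene, where 15 of the 17 lay. The test named in the study's methods, run gene by gene, called 2 of them lower. The gene called by limma was Gm11538, a long noncoding RNA gene between Hoxb13 and Hoxb9 and the measured gene next to Hoxb13. Its signal was 5.82, 5.95 and 6.11 in c-kit- cells and 4.79, 5.02 and 5.12 in c-kit+ cells. The groups were well apart, and the difference was 0.98 ± 0.13 (standard error, n = 3 each; adjusted p = 0.00147 from limma), close in size to that of Hoxb13. This call held without any single array, with adjusted p from limma between 0.00329 and 0.00724, and without both c-kit+ arrays 1 and 2 the difference was 0.84 (adjusted p = 0.0800 from limma). The next measured genes along the cluster, Gm53, Mir196a-1 and Hoxb9, had differences of -0.32, -0.24 and -0.30 and were not called, and on the other side Ttll6 was not called either. Hotair, the long noncoding RNA of the Hoxc cluster that is known for its link to Polycomb, read between 3.86 and 4.17 on the c-kit- arrays and between 3.94 and 4.41 on the c-kit+ arrays, which overlap. Haglr, a long noncoding RNA of the Hoxd cluster, had a difference of 0.50 with an interval of -0.35 to 1.34 and c-kit+ arrays at 3.79, 3.00 and 4.66.

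The miRNAs are shown because their seeds tie the clusters together. The mature 5p forms from RefSeq (GRCm38.p6) are printed 5′ to 3′, with the seed, bases 2 to 8, in capitals.
mmu-miR-10a-5p: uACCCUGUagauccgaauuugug
mmu-miR-10b-5p: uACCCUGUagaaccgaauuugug
mmu-miR-196a-5p: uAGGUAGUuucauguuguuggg
Mir10a of the Hoxb cluster and Mir10b of the Hoxd cluster share a seed, and Mir196a-1 of the Hoxb cluster and Mir196a-2 of the Hoxc cluster give the same mature sequence, which is known to act on Hox transcripts. None of the 5 miRNA genes was called by limma, and 0 had an unadjusted p under 0.05. The differences of Mir10a and Mir10b were 0.05 and 0.01, and those of Mir196a-1 and Mir196a-2 were -0.24 and -0.26. All values of Mir10a and Mir10b lay between 2.40 and 2.78, below the lower quartile of every array, and an array signal of such a gene does not measure the mature miRNA.

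**Figure D3:**
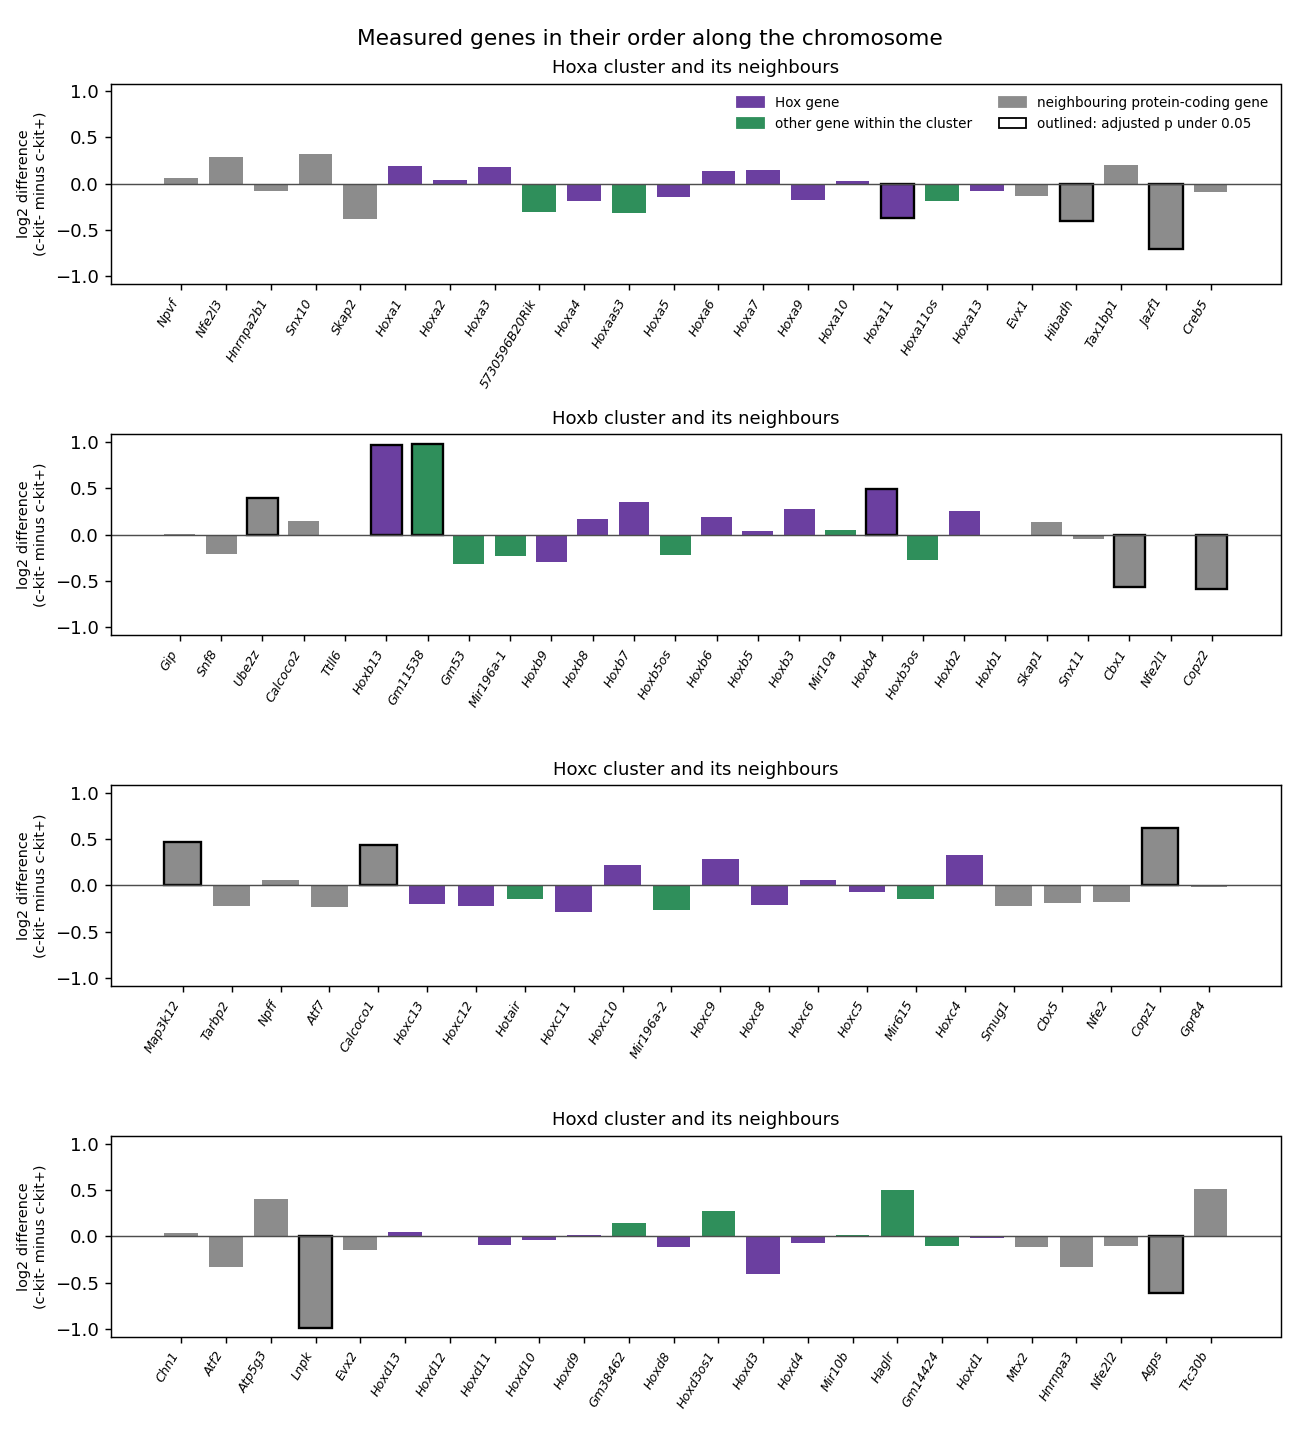
Difference in log2 signal (c-kit- minus c-kit+) of the measured genes in their order along the chromosome, with Hox genes in purple, other genes within the clusters in green and 5 protein-coding neighbours on each side in grey. Outlined bars are called genes, and Hoxb13 and Gm11538 stand side by side at 0.97 and 0.98.

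The protein-coding genes around the clusters, 5 on each side and 40 in all, included 4 that were higher and 6 that were lower in c-kit- cells, 25% of them against the background of 18.1%. Of the 40, 27 lay above the array median on every array, and of the 12486 genes of the whole array with a mean signal above that of the median gene 30.4% were called, so the share is not a result about these neighbours. Lnpk, an endoplasmic reticulum protein gene beside Evx2 and the Hoxd cluster, was at 5.70, 5.76 and 6.17 on the c-kit- arrays, against 6.93, 6.95 and 6.71 on the c-kit+ arrays, a difference of -0.99 (adjusted p = 0.00266 from limma). Jazf1, Agps and Copz2 were lower too, by differences of -0.70, -0.61 and -0.59, and these calls held without any single array. Copz1 beside the Hoxc cluster had the largest positive difference, 0.62, followed by Map3k12, Calcoco1 and Ube2z with 0.47, 0.44 and 0.40. The calls of these 4 genes were lost without some of the arrays. The adjusted p from limma reached 0.0668 for Copz1 (lost without c-kit- array 1 or 2 or c-kit+ array 1 or 3), 0.105 for Map3k12 (the same arrays), 0.0962 for Calcoco1 and 0.0956 for Ube2z (each lost whichever array but c-kit- array 2 was left out). Of the 4 neighbours called higher, 0 were left without c-kit- array 1, c-kit+ array 1 or c-kit+ array 3, and 2 without any other single array. The homeobox genes at the cluster ends, Evx1 and Evx2, were not called by limma, nor were the ParaHox genes Cdx1, Cdx2, Cdx4, Gsx1, Gsx2 and Pdx1 (0 of the 8 at an unadjusted p under 0.05), and all 8 lay below the array median on every array.

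Of 8 genes listed for cofactors that bind DNA with Hox proteins, 1 was lower in c-kit- cells and 7 were not called, a share of 12.5% against the background of 18.1% for calls in either direction and 8.79% for lower genes. Pbx3, a homeodomain protein of the TALE class, was at 5.97, 5.62 and 5.63 on the c-kit- arrays, against 7.27, 7.59 and 6.76 on the c-kit+ arrays, a difference of -1.46 ± 0.21 (standard error, n = 3 each; adjusted p = 0.00206 from limma). The groups did not overlap, every c-kit- array lying below every c-kit+ array, and the call held without any single array. It was lost with the test named in the study's methods, run gene by gene (adjusted p = 0.0519), and without both c-kit+ arrays 1 and 2, where the difference was -1.02 (adjusted p = 0.0671 from limma). Pbx2 and Pbx4 had signals between 6.93 and 8.44 and differences of -0.13 and -0.0039. Meis1, Meis2, Meis3, Pknox1 and Pknox2 had differences between -0.24 and 0.19.

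**Figure D4:**
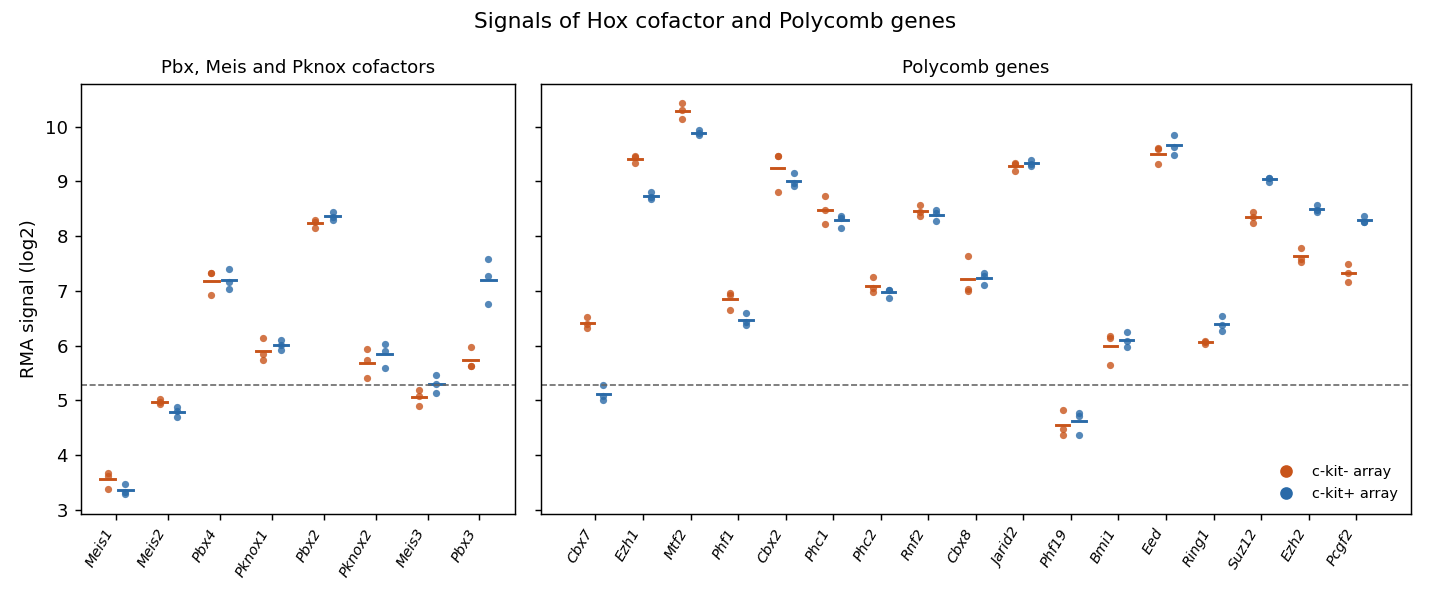
RMA signal (log2) of 8 Hox cofactor genes and 17 Polycomb genes in c-kit- arrays (orange, left) and c-kit+ arrays (blue, right), with group means as bars and the mean of the array medians (5.29) as a dashed line, ordered by their difference. Cbx7 stands at the left end of its panel with the highest difference, and Pbx3 and Pcgf2 stand at the right ends with the lowest.

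Among the genes that act on Hox clusters, Polycomb genes changed in both directions. Of 17 listed, 3 were higher and 3 lower in c-kit- cells, a share of 35.3%. The background was 18.1% of all genes and 30.4% of genes above the median gene, a range that held 16 of the 17, so the share was near that of genes with like signals. The catalytic subunits of the H3K27 methyltransferase differed in opposite directions, with Ezh1 at 9.34, 9.44 and 9.46 in c-kit- cells against 8.71, 8.82 and 8.69 in c-kit+ cells, and Ezh2 at 7.53, 7.78 and 7.58 in c-kit- cells against 8.44, 8.57 and 8.48 in c-kit+ cells. Their differences were 0.68 and -0.87 (adjusted p = 0.00263 and 0.00131 from limma). Cbx7, a subunit that reads this mark, had a difference of 1.29, and the subunits Pcgf2 and Suz12 had differences of -0.96 and -0.69. These 5 calls held without any single array. Mtf2, with a difference of 0.40, was not called when any array other than c-kit- array 1 was left out, with adjusted p from limma up to 0.126. Without c-kit- array 1, 5 Polycomb genes were called higher in place of 3.

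Of 12 genes of the trithorax and MLL group and of H3K27 demethylases, which oppose Polycomb, none was higher and 3 were lower, a share of 25%. All 12 lay above the array median on every array, and the share was below the background of 30.4% of genes above the median gene. Men1, a partner of MLL proteins, had a difference of -0.75, which held without any single array. The demethylase genes Kdm6a and Kdm6b had differences of -0.51 and -0.41. Kdm6a was not called without c-kit- array 1 or 3 or c-kit+ array 1 or 2, and Kdm6b was not called whichever array was left out, with adjusted p from limma up to 0.0827 and 0.102. Without c-kit- array 1 or 3 or c-kit+ array 1 or 2, the number called lower was 1.

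Of 14 genes of retinoic acid signalling, which induces Hox genes in the embryo and differentiation in spermatogonia, 2 were higher and 3 lower in c-kit- cells, a share of 35.7% against backgrounds of 18.1% of all genes and 30.4% of genes above the median gene, where 8 of the 14 lay. Nothing particular to the list is read from this share. The binding protein gene Crabp1 had a difference of -0.83, which held without any single array, and the synthesis gene Aldh1a2 had a difference of -0.65, with an adjusted p from limma of 0.0572 without c-kit+ array 1 and 0.0578 without c-kit+ array 2. The receptor gene Rarg had a difference of 0.64, Aldh1a3 one of 0.44 and the breakdown enzyme gene Cyp26b1 one of -0.52. Rarg was not called without c-kit- array 2 or 3 or c-kit+ array 2 or 3, Cyp26b1 when any array other than c-kit+ array 1 was left out, and Aldh1a3 whichever array was left out, with adjusted p from limma up to 0.101, 0.110 and 0.116. The number called higher was 0 without c-kit- array 2 or 3 or c-kit+ array 2 or 3 and 1 without c-kit+ array 1, and the number called lower was 1 without c-kit+ array 2.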

How the data were processed

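Signals came from 6 Affymetrix Mouse Gene 2.0 ST arrays, 3 per population. Per the labels, RNA was amplified by the Ovation Pico V2 protocol. The authors corrected background, normalized between arrays and summarized probes by robust multi-array average (RMA), and deposited log2 values, 1 per Entrez gene and array. The RMA version and the probe set definition are not given in the sources used here. Names, chromosomes and gene order came from a RefSeq gene table (GRCm38.p6, 24481 genes), with 93 names from the platform table and 399 genes unnamed. No further scaling or filter was applied. A model with the population as its term was fitted to all 24973 genes in R 4.3.3 (lmFit and eBayes of limma 3.58.1), after a test on simulated data. limma replaced the ANOVA that the study's methods name, because it shares variance between genes, and the ANOVA was an alternative. Other alternatives were scaling, filters, prior variance, array weights, the replicate number as a block and left-out arrays.

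The Hox genes, the other lists and the alternatives were chosen with earlier results of these data known. Per-array values are given for called Hox genes and for the highest gene of each cluster. Called genes of the other lists are named, at most 4 per direction. Hoxd3, Hotair, Haglr and the uncalled neighbours and paralogs were added after their values were seen. Whether 1 mouse gave samples of both populations is not stated. Arrays give no counts, so their number limits the precision. Some Hox genes overlap in the gene table (Hoxa3 with Hoxa4, Hoxa5 and Hoxa6, Hoxb3 with Hoxb4, Hoxd3 with Hoxd4), and shared probes could not be checked. The cofactor and Polycomb lists are not complete, and some genes of these families are not reported here. Human arrays were not used here.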

Additional observations from a re-analysis of the deposited data

How the results depend on the processing

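No result turned its direction past a threshold under any alternative. Against 2 Hox genes higher in c-kit- cells, 1 was called with quantile normalization once more, with cyclic loess, among genes above the 25th percentile and at the study's thresholds, 0 among genes above the median (only 4 Hox genes were tested there) and with the per-gene ANOVA, and between 0 and 2 with 1 array left out. Against 1 Hox gene lower, 0 were called with quantile normalization once more, equal array medians, cyclic loess, for genes above the median only, with a mean-dependent prior variance, at the study's thresholds and with any 1 array left out. Hox genes without overlap, 7 as reported (17.9%, against 35.1% of all genes), were 11 with quantile normalization once more and with cyclic loess (28.2%, against 35.5% and 35% of all genes), 0 of 4 among genes above the median (against 50.4%) and between 10 and 13 with 1 array left out (25.6% to 33.3%, against 42% to 45.4%). Without c-kit+ arrays 1 and 2, an alternative added after seeing the data, 0 Hox genes were higher, 0 were lower and 23 did not overlap (59%, against 61.3% of all genes), since 1 array then stands for c-kit+ cells. Over all genes, 527 were then higher and 239 lower. Of the called genes named here, markers aside, Cbx7 was then the only one called by limma (adjusted p = 0.0342). The per-gene ANOVA, the test of the study's methods, called 1307 genes higher and 1205 lower, with Hoxa11 as its 1 Hox gene and Hoxb13 at an adjusted p of 0.120, and the study's thresholds called 1451 genes lower. Pbx3, Copz1, Map3k12, Calcoco1, Mtf2, Kdm6a, Rarg, Aldh1a2, Aldh1a3 and Cyp26b1 were not called by the ANOVA either. The causes were not tested.

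The main model did not use the replicate numbers of the labels as pairs. The deviations of same-numbered arrays correlated at 0.0999, 0.0973 and 0.137, and those of differently numbered arrays at -0.0879 to -0.0174. Every array correlated best with its own number, so a pairing cannot be set aside. With the replicate block, 2 Hox genes were higher and 0 lower (Hoxa11 at an adjusted p of 0.0673 from limma), Mtf2, Kdm6b, Aldh1a3, Calcoco1 and Ube2z were not called either, and 4513 genes were called in place of 4527. Low signals limit the Hox results, since 35 of 39 genes had a mean signal below that of the median gene.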
